A study of Mus musculus with 10 samples.

Results

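The windows described here are the stretches of open chromatin that the authors' files name for a collagen gene. The assay was ATAC-seq: a transposase inserts adapters into accessible DNA, and the fragments between insertions are sequenced. Every row of the 4 deposited peak lists whose gene name is Col, a number, a and a number was taken, which gave 522 of 97788 windows (0.534%). The gene name in the files is that of the nearest start site. The cells were MC3T3-E1, an established mouse line labelled as osteoblasts, the cells that make bone. There were 4 groups of 2 libraries: cells without a factor (none), cells given TNFa at 10 ng/ml, cells given BMP4 at 10 ng/ml, and cells given both. All cells were first kept in 2.5% serum for 30 min. The sample labels give 3 h for each factor, whereas the protocol text puts TNFa 30 min ahead of the 3 h with BMP4, so the length of exposure to TNFa is uncertain. The genotype field of the labels repeats the factor given, and no altered allele is named. Both titles of the TNFa group also contain p65 without saying what it marks, and this touches each comparison with that group. Libraries of sonicated DNA from the same line (2) were the authors' background.

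Collagens are secreted proteins whose chains wind into a triple helix. The fibrillar collagens form the tension-bearing fibrils of bone, skin and cartilage, and type I, made of the chains of Col1a1 and Col1a2, is the main protein of bone matrix. FACIT collagens attach to the surface of fibrils, type VI forms beaded microfibrils near cells, type IV forms the network of basement membranes, and the remaining classes include short-chain networks, multiplexins and transmembrane collagens. TNFa, an inflammatory cytokine, acts through NF-kB, and BMP4, a bone morphogenetic protein, acts through SMAD factors. Open chromatin shows where DNA is accessible and is not a measure of transcription.

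The lists were called on pooled replicates and cannot be compared against a spread of their own. Library totals in M tags were 16.5 to 21.8 in the groups given TNFa and 26.0 to 30.1 in the other groups. The lists with TNFa were also the shorter ones, and the part of depth in the number of windows was not tested. Of 11 osteoblast marker genes, 10 had a window in some list (not Alpl), and of 4 muscle markers 0 did. Of 4 endothelial markers 3 had one, and the windows of Cdh5 and Pecam1 in all 4 lists summed to 339 to 673 CPM over the 8 libraries. Whether the 2 libraries of a group are separate cultures is not stated in the labels, and the p-values rest on a spread that may be technical only.

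Promoter sequences are shown for the few collagen windows at start sites, which were a small share of all collagen windows. A promoter window in all 4 lists was called for 5 genes, namely Col1a1, Col1a2, Col5a1, Col12a1 and Col4a5. The RefSeq table used (GRCm38.p6, the assembly called mm10) held promoters of 35 collagen genes, Col1a2, Col5a1 and Col4a5 among them. Their 250 bases before the start site are given below, 5' to 3', with Col3a1, whose promoter was called only in the lists without TNFa. Capitals mark the letters CCAAT (the CCAAT box), those of the TATA box (TATAAA) and those of the GC box (GGGCGG), on either strand.
Col1a2, chr6:4505368-4505617, plus strand: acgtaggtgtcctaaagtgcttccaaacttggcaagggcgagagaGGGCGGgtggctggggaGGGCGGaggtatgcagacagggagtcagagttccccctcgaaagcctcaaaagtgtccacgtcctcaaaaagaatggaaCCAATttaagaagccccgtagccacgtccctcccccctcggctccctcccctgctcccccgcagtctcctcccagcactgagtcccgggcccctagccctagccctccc
Col5a1, chr2:27886175-27886424, plus strand: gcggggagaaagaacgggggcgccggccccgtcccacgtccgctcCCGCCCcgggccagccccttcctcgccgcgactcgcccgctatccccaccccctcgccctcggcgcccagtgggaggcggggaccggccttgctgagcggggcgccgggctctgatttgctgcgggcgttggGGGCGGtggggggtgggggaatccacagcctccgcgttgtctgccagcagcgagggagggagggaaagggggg
Col4a5, chrX:141475169-141475418, plus strand: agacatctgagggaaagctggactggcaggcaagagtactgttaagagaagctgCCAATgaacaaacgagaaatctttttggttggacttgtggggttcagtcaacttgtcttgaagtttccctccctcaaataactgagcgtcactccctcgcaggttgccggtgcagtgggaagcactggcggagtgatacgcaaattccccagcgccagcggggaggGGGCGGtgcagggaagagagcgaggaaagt
Col3a1, chr1:45311288-45311537, plus strand: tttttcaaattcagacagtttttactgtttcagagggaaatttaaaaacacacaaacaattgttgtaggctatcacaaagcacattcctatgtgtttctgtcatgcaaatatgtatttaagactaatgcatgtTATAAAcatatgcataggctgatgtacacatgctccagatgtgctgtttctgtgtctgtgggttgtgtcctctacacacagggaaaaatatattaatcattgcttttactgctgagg

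In Col1a2 the CCAAT match began at -109 and lay inside the window called in all 4 lists (chr6:4505467-4505591), whereas the GC boxes at -205 and -188 lay outside it. In Col5a1 the GC box at -73 lay inside the window chr2:27886233-27886357 and that at -205 outside. In Col4a5 the GC box at -30 lay inside the window chrX:141475338-141475462 and the CCAAT match at -196 outside. Col3a1 had no CCAAT or GC box in these bases and 1 TATA match, at -117. Its upstream bases were 35.2% G or C, the lowest share among the 11 collagen promoters of the table with a window over them in any list (median 62.0%, highest 76.4%). The 24 collagen promoters without a window had a median of 59.2%, and all 32851 promoters in the table had 52.4%.

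Over the 35 collagen promoters, GGGCGG was present in 21, against 32.7% of all promoters of the same length. CCAAT was present in 12, against 33.8% of all. TATAAA was present in 5, against 12.4% of all. A loose NF-kB pattern, GGG and CC with 5 bases of any kind between them, was present in 25, against 45.8% of all, and the SMAD letters CAGAC in 14, against 42.2%. Both strands were searched, and matches of the NF-kB pattern can overlap one another and GC boxes. The collagen promoters were also richer in G and C than all promoters, and its part in these shares was not tested. The matches describe the sequences and name no bound factor.

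Of 44 collagen genes in the RefSeq table, 32 had a window in at least 1 list and 25 in all 4. No window carried the name of Col4a3, Col6a4, Col6a5, Col6a6, Col7a1, Col9a1, Col9a2, Col10a1, Col20a1, Col22a1, Col25a1 or Col26a1. Among these, Col9a1 and Col9a2 encode cartilage chains and Col10a1 the collagen of hypertrophic cartilage. The list of untreated cells held 144 collagen windows, that of TNFa 118, that of BMP4 137 and that of both factors 123, which was 0.507% to 0.559% of all windows in a list.

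**Figure D1:**
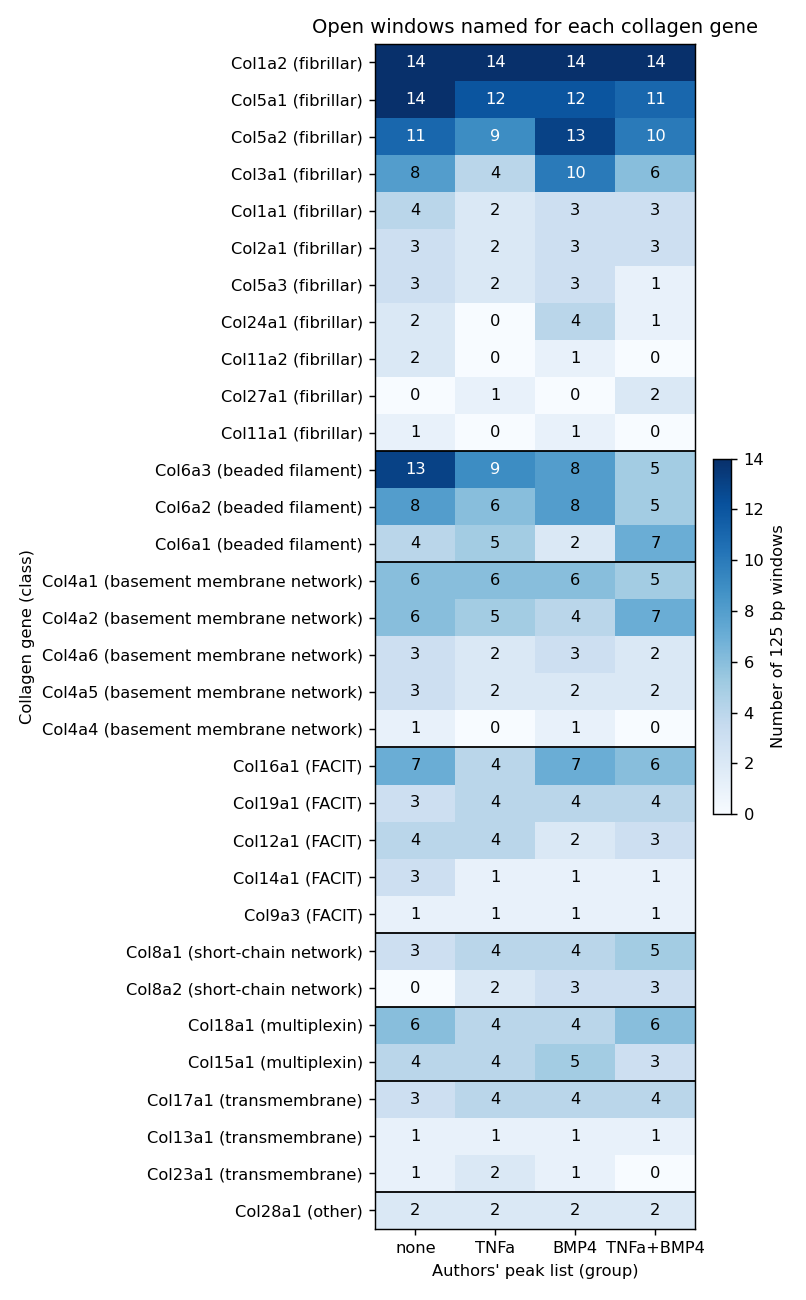
Number of windows named for each of the 32 collagen genes with any window (rows, grouped by class) in each of the authors' 4 lists (columns). Col1a2 has 14 windows in every list, and Col8a2 has none in the list of untreated cells and 2, 3 and 3 in the others.

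Fibrillar genes held the most windows, 62 in the list of untreated cells, 46 in that of TNFa, 64 in that of BMP4 and 51 in that of both factors. Col1a2 had 14 in each list, and Col5a1, a chain of the type V collagen that regulates fibril width, had 14, 12, 12 and 11 in that order. Col5a2, its partner chain, had 11, 9, 13 and 10. Col3a1, the chain of type III collagen of distensible tissue, had 8, 4, 10 and 6. Col1a1 had 4, 2, 3 and 3. In the FACIT class Col16a1 had 7, 4, 7 and 6 windows. Among the type VI genes, Col6a3 had 13, 9, 8 and 5.

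A few genes had windows in some lists only. Col11a1, Col11a2 and Col4a4 were named only in lists without TNFa, with 1 or 2 windows per list, and Col27a1 only in lists with TNFa, with 1 and 2. Col8a2, a short-chain collagen of the cornea, was named in the 3 lists with a factor. Col24a1 had 2, 0, 4 and 1 windows, and Col23a1 had 1, 2, 1 and 0. These are calls past a threshold in pooled libraries of unequal depth, without replicates, and no difference between lists was tested.

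Collagen windows lay farther from start sites than windows at large. Promoters made up 7.30% to 10.4% of the collagen windows of a list, against 31.8% to 35% of all windows. Introns held 41.7% to 44.9%, against 30.2% to 32.0% of all, and intergenic DNA 43.1% to 48.2%, against 29.9% to 31.8%. The median distance to the start site was 24146 to 25448.5 bp, against 5264 to 7569 bp for all windows.

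The nearest start site is not always that of the gene a window lies in. Of 286 collagen rows inside a transcript, 39 lay in a transcript of another gene. Col4a1 and Col4a2 lie head to head on chromosome 8, at 11198423-11312889 and 11312805-11449287, so their spans share 85 bases at the start sites. All 23 rows named Col4a1 lay inside Col4a2, and 11 of the 22 rows named Col4a2 lay inside Col4a1. A further 5 rows named Col14a1 lay inside Deptor, a gene of mTOR signalling. The names of the files are kept below, so every window named Col4a1 lies inside Col4a2. Windows called intergenic are so by the authors' annotation, and some lie within other RefSeq genes. Examples are the -2472 bp window of Col1a1, in Gm46293, and the -86541 bp window of Col1a2, in Gm46948.

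When windows overlapping by at least 63 bp were joined across lists, 195 collagen regions resulted, of 35534 in all. Of these, 72 (36.9%) were called in all 4 lists, against 42.5% of all regions. Regions in the lists with TNFa and in no other numbered 10 (5.13%, against 4.18% of all), and regions in the lists without TNFa and in no other numbered 16 (8.21%, against 7.36%). Regions in both lists with BMP4 only numbered 5 (2.56%, against 2.57%), and regions in both lists without BMP4 only also numbered 5, against 2.84% of all. A single list held 16 collagen regions in the untreated group (8.21%, against 7.92% of all) and 6 in the TNFa group (3.08%, against 4.32%). It held 16 in the BMP4 group (8.21%, against 5.83%) and 10 in the group of both factors (5.13%, against 6.26%). The remaining pairs of lists were rare, with 0 collagen regions in TNFa and BMP4 only (0.726% of all) and 3 in untreated cells and both factors only (1.02%). The 6 regions of the TNFa list alone lay near 6 genes, among them a window over the promoter of Col15a1, a multiplexin. Of the regions called in 3 lists, 13 were missing from the list of both factors (6.67%, against 4.18% of all), 11 from that of TNFa (5.64%, against 3.5%), 8 from that of BMP4 (4.10%, against 4.45%) and 4 from that of untreated cells (2.05%, against 2.3%). No difference in these shares was tested.

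**Figure D2:**
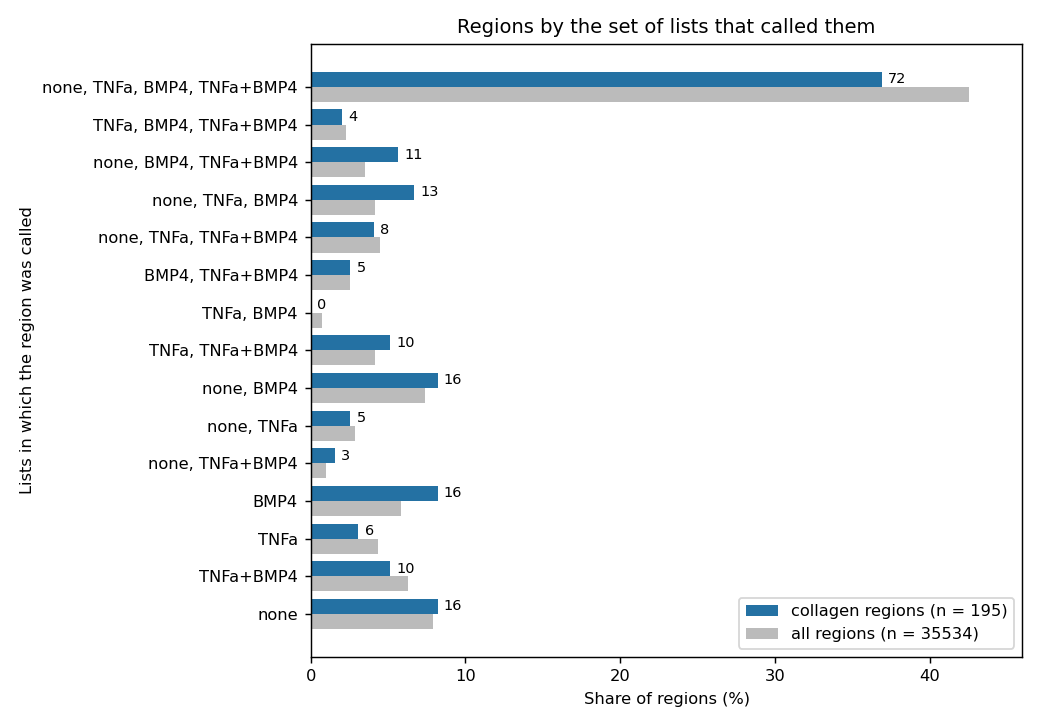
Share of regions (horizontal axis, %) by the lists in which a region was called (vertical axis), for the 195 collagen regions (blue, number beside the bar) and all 35534 regions (grey). Both sets are led by regions of all 4 lists, 36.9% of the collagen regions and 42.5% of all.

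A region called in 1 set of lists could have a neighbour in another list. Of the 10 regions in the TNFa lists only, 4 lay within 500 bp of a window from a further list, and of the 16 in the lists without TNFa, 6 did. Col13a1, a transmembrane collagen, had chr10:61956828-61956952 in the TNFa lists and chr10:61956921-61957045 in the others, both in its intron 2. Col9a3, a cartilage FACIT chain, likewise had chr2:180600900-180601024 with TNFa and chr2:180600824-180600948 without, in intron 4. These windows overlap by less than the minimum, so they count as separate regions. When all windows within 500 bp were joined, 4 of 148 collagen regions (2.70%) were in the TNFa lists only, against 2.94% of all 27078 regions.

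Among the regions without such a neighbour were some at Col27a1 and Col8a2. Col27a1 encodes a fibrillar collagen of cartilage, and its window chr4:63216431-63216555, in intron 1, had 48 and 42 tags with TNFa alone and 51 and 54 after both factors. It was not called in untreated or BMP4-treated cells. In Col8a2, the region chr4:126301469-126301643 in intron 2 had 63 and 40 tags after TNFa, 101 and 38 after BMP4, and 152 and 87 after both. A second region in that intron, chr4:126301036-126301180, had 45 and 50, 44 and 72, and 107 and 68. Where a list lacks a region its tags in that group are not in the files used here, so no fold change was computed. These regions were picked after their values were seen.

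At the Col3a1 promoter, chr1:45311509-45311643, the untreated libraries had 8 and 11 tags and the BMP4 libraries 13 and 16, and neither list with TNFa called it. At the Col6a2 promoter, chr10:76623411-76623535, the untreated libraries had 40 and 114 tags and the BMP4 libraries 45 and 199, again with no call in the lists with TNFa. The Col3a1 counts are near the limit of calling and the Col6a2 libraries differ more than 2-fold within each group.

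Differences between groups were tested where a window was found in all 4 lists, since every group then has a value. There were 71 such collagen windows, of 20 genes, and all were among the 14416 windows tested. A region of Col15a1 in all 4 lists was left out, since its windows did not all overlap one another by 63 bp. Col1a2 gave 12, Col5a1 8, Col5a2 7, and Col4a1, Col6a2 and Col6a3 5 each. A window called in all lists was open in every group, so this set leaves out the windows most likely to differ. Levels are in CPM, the counts per M tags in tested windows after scaling, and all windows have the same length. The collagen windows had a median level of 51.3 CPM, against 49.6 for all tested windows. Their tags per library ran from 3 to 692 with a median of 42, and their background libraries from 0 to 23 with a median of 7. The standard error of a log2 fold change between 2 groups was 0.40 to 0.97, median 0.61, so a 2-fold change in 1 window was within 1 to 2.5 standard errors of 0.

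The windows of highest level belonged to type VI and type II collagen. The highest was at -4379 bp from Col6a1, intergenic (chr10:76730361-76730485), with 317 and 243 CPM in the untreated libraries, 319 and 378 in the TNFa libraries, 290 and 332 in the BMP4 libraries, and 337 and 464 where both were given. The untreated libraries lay below those with TNFa, alone or with BMP4, and the log2 fold changes were 0.32 ± 0.40 (SE) and 0.51 ± 0.40. The window at -19101 bp from Col6a2 (chr10:76642669-76642793), intergenic, had 336 and 202, 379 and 197, 357 and 195, and 306 and 232 CPM in the same order. There replicate 1 was the higher in each group, and the groups overlapped throughout.

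Col2a1 encodes the main collagen of cartilage. Its window in intron 1 (chr15:98001986-98002110) had 158 and 391 CPM in the untreated libraries, 91.0 and 185 in the TNFa libraries, 253 and 440 in the BMP4 libraries, and 206 and 196 where both were given. Both TNFa values lay below those of BMP4 and of both factors, while the untreated group overlapped all others. Against untreated cells the log2 fold change with TNFa was -0.93 ± 0.61, at an adjusted p of 1.00 from limma.

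Col1a1 and Col1a2 encode type I collagen. The Col1a1 promoter window (chr11:94936184-94936308, at 22 bp) had 50.3 and 94.6 CPM in the untreated libraries, 51.5 and 63.3 in the TNFa libraries, 68.7 and 99.8 in the BMP4 libraries, and 64.8 and 56.6 where both were given. Both groups with TNFa lay below the BMP4 values, and the untreated group overlapped all others. This window also had 23 and 23 tags in the background libraries. The Col1a2 promoter window had 140 and 207, 106 and 190, 82.4 and 186, and 94.5 and 166 CPM in that order. All groups overlapped at Col1a2, and replicate 2 was the higher in each.

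The highest window of Col1a1 lay at -2472 bp, intergenic (chr11:94933690-94933814), with 64.5 and 232 CPM in the untreated libraries, 48.1 and 105 in the TNFa libraries, 53.8 and 207 in the BMP4 libraries, and 60.6 and 58.9 where both were given. The second replicate was 3.60 times the first in untreated cells and 3.85 times with BMP4, while the replicates with both factors were nearly equal. The highest window of Col1a2 lay far upstream, at -86541 bp (chr6:4419015-4419139), with 216 and 241, 216 and 221, 163 and 200, and 168 and 228 CPM. BMP4 lay below the untreated group there by a log2 fold change of -0.34 ± 0.44, within the error.

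Summed over its 12 windows, Col1a2 had 783 and 831 CPM in the untreated libraries, 686 and 762 in the TNFa libraries, 682 and 743 in the BMP4 libraries, and 647 and 766 where both were given. All 3 groups with a factor lay below the untreated group, whose mean was 807 CPM against 706 to 724. The 2 windows of Col1a1 summed to 115 and 327, 99.5 and 168, 122 and 307, and 125.5 and 116 CPM, with wide overlap. The sums were not tested, as the fit was made per window.

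Type III, V and XII collagens accompany type I in fibrils. Col5a1 had a pair of promoter windows. That at -444 bp (chr2:27885919-27886043) had 164 and 49.9 CPM in the untreated libraries, 146 and 117 in the TNFa libraries, 150 and 45.8 in the BMP4 libraries, and 156 and 157 where both were given. That at -130 bp had 120 and 70.4, 153 and 77.7, 148 and 55.3, and 159 and 142 CPM. In both windows the second library was far below the first in the untreated and BMP4 groups and close to it with both factors. At -130 bp the second TNFa library was also far below, at 0.508 times the first, against 0.588 times in untreated cells. The highest window of Col5a1 lay at -50178 bp, intergenic (chr2:27836185-27836309), with 185 and 103 CPM in the untreated libraries. It had 220 and 87.2 CPM in the TNFa libraries, 232 and 124.6 in the BMP4 libraries, and 238 and 171 where both were given. Replicate 1 was the higher in each group there, and every group overlapped the untreated one. Over the 8 windows of Col5a1 the sums were 703 and 414, 709 and 521, 698 and 420, and 774 and 730 CPM, and both factors gave the highest values.

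Col5a2 windows were low. The highest, at -84535 bp (chr1:45587755-45587879, intergenic), had 38.5 and 44.7 CPM in the untreated libraries, 24.0 and 41.8 in the TNFa libraries, 20.6 and 22.9 in the BMP4 libraries, and 22.6 and 35.1 where both were given. The values with BMP4 and with both factors lay below the untreated ones. The 7 windows summed to 124 and 169, 92.7 and 128, 112 and 113, and 94.5 and 113 CPM. The highest Col3a1 window, in intron 1 (chr1:45316251-45316375), had 12.6 and 20.5, 10.3 and 15.5, 20.6 and 17.8, and 25.4 and 11.3 CPM, with every group overlapping the untreated one.

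Col12a1, a FACIT collagen of tendon and periosteum, had 53.6 and 103 CPM at its promoter (chr9:79718723-79718847) in the untreated libraries, 58.4 and 53.8 in the TNFa libraries, 69.8 and 121 in the BMP4 libraries, and 69.1 and 64.6 where both were given. BMP4 lay above both groups with TNFa, and the untreated group overlapped all others. Its highest window, in intron 16 (chr9:79680955-79681079), had 87.1 and 64.5, 115 and 71.7, 76.7 and 69.3, and 93.0 and 82.7 CPM. Col4a5, a basement membrane chain, had a weak promoter window of 11.7 and 5.87, 18.9 and 7.17, 16.0 and 4.45, and 11.3 and 5.66 CPM. Replicate 1 was the higher in each group at Col4a5, and all groups overlapped.

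Partner chains of type VI collagen, Col6a1 and Col6a2, lie side by side on chromosome 10, and their summed windows lay on opposite sides. The 2 windows of Col6a1 summed to 406 and 313 CPM in the untreated libraries, 527 and 450 in the TNFa libraries, 517 and 395 in the BMP4 libraries, and 605 and 555 where both were given. The 5 windows of Col6a2 summed to 783 and 992, 832 and 720, 794 and 992, and 694 and 604 CPM in that order. Both factors together gave the highest values at Col6a1 and the lowest at Col6a2, and these sums were not tested. Replicates were also unlike in the -7532 bp window of Col6a1. There the second library was 0.78 times the first in untreated cells, 0.35 times with TNFa, 0.27 times with BMP4 and 0.34 times with both. Against untreated cells, both factors had log2 fold changes of -0.11 and 0.03 at -18779 and -19101 bp from Col6a2. At -25339, -41330 and -45470 bp they had -0.62, -1.23 and -1.18. In those windows the second untreated library was 3.45, 3.82 and 2.35 times the first, so the low Col6a2 sum leans on windows with unlike replicates. Col6a3, the third chain, had 124.8 and 266, 117 and 142, 135 and 280, and 193 and 160 CPM over its 5 windows.

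For type IV, the window at -139286 bp from Col4a2, beyond the end of Col4a1, had 56.1 and 90.9 CPM in the untreated libraries, 53.2 and 55.0 in the TNFa libraries, 154 and 114 in the BMP4 libraries, and 109 and 48.7 where both were given. The BMP4 values were above all others. Among the other classes, the 3 short-chain windows, all of Col8a1, summed to 89.3 to 247 CPM over the 8 libraries, the 3 multiplexin windows of Col18a1 to 207 to 409, and the 3 transmembrane windows of Col17a1 to 84.1 to 157. The 5 FACIT windows, of Col12a1 and Col16a1, summed to 430 and 442 CPM in the untreated libraries, 606 and 447 in the TNFa libraries, 494 and 453 in the BMP4 libraries, and 553 and 424 where both were given. The TNFa and BMP4 groups lay above the untreated one, and the group of both factors overlapped it.

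**Figure D3:**
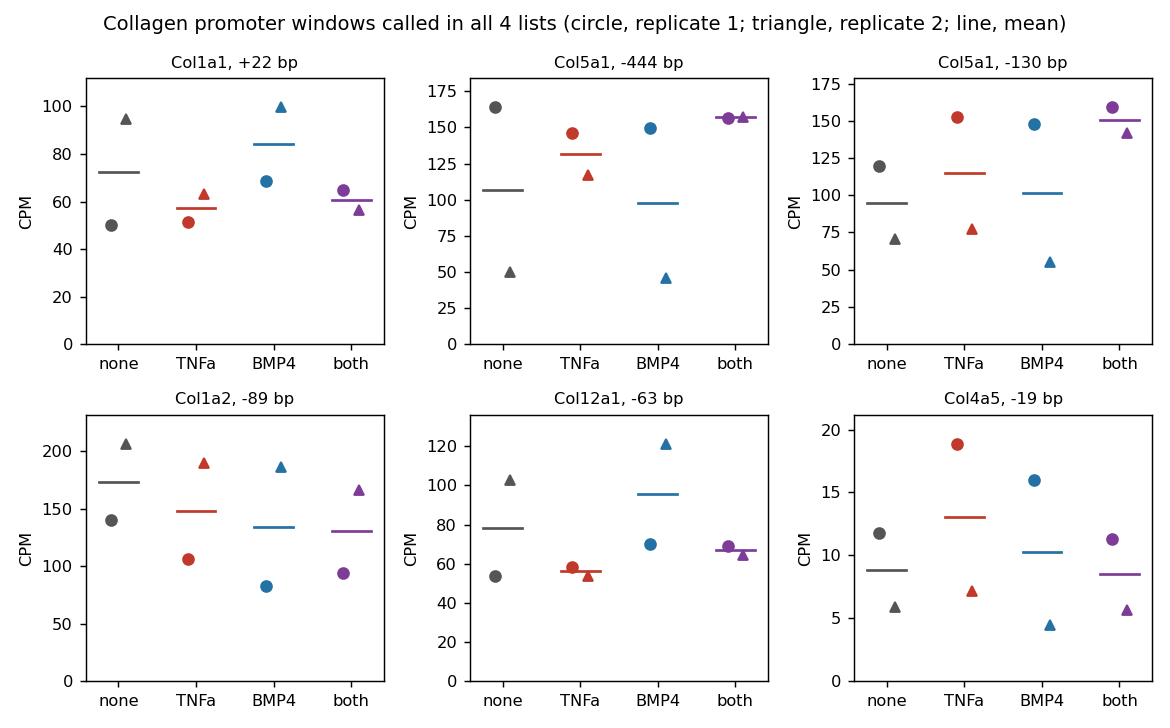
CPM of the 6 collagen promoter windows called in all 4 lists, by group (none, TNFa, BMP4, both), with 1 panel per window and its distance from the start site in the title; circles are replicate 1, triangles replicate 2 and lines the mean of 2. The second library of the untreated and BMP4 groups falls to 49.9 and 45.8 CPM at -444 bp of Col5a1, while both libraries with 2 factors stand at 156 and 157.

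No collagen window passed an adjusted p of 0.05 (limma, Benjamini-Hochberg over 14416 windows) in any of 5 comparisons between groups or in the interaction, and no other window did (0% of all tested). The following counts describe directions within the error of single windows. In the comparison of TNFa with untreated cells, 25 of 71 collagen windows were above 0, against 50% of all windows, and the median log2 fold change was -0.18 against -0.00 of all. Among 35 fibrillar windows, 9 were above 0, with a median of -0.26. The summed fibrillar level was 2146 and 2326 CPM in the untreated libraries, 1956 and 1968 in the TNFa libraries, 2330 and 2227 in the BMP4 libraries, and 2291 and 2162 where both were given. Basement membrane windows, 6 of 8 above 0 with a median of 0.32, and FACIT windows, 3 of 5 with 0.27, lay the other way. Their largest values came from neighbouring windows of 1 locus each. These were 1.25 and 0.96 at -63017 and -63418 bp from Col4a1, and 1.35 and 1.17 at 2403 and 2795 bp from Col16a1. Of the other basement membrane windows above 0, those at -80461 and -80962 bp from Col4a1 had 0.0076 and 0.22. Those of Col4a5 and Col4a6 had 0.41 ± 0.71 and 0.92 ± 0.75 and were weak, with means of 10.1 and 12.4 CPM. With the first TNFa library left out, the fibrillar median was -0.047, that of the basement membrane windows 0.11 and that of the FACIT windows -0.064, which turned its direction. With the second untreated library left out, 35 of 71 collagen windows were above 0 and the median was -0.02. With the first TNFa library left out, the median of all collagen windows was -0.047. Scaling by total tags moved the median of all windows to -0.15, with 39.2% of all and 20 of 71 collagen windows above 0, and the collagen median was then -0.17 relative to it.

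**Figure D4:**
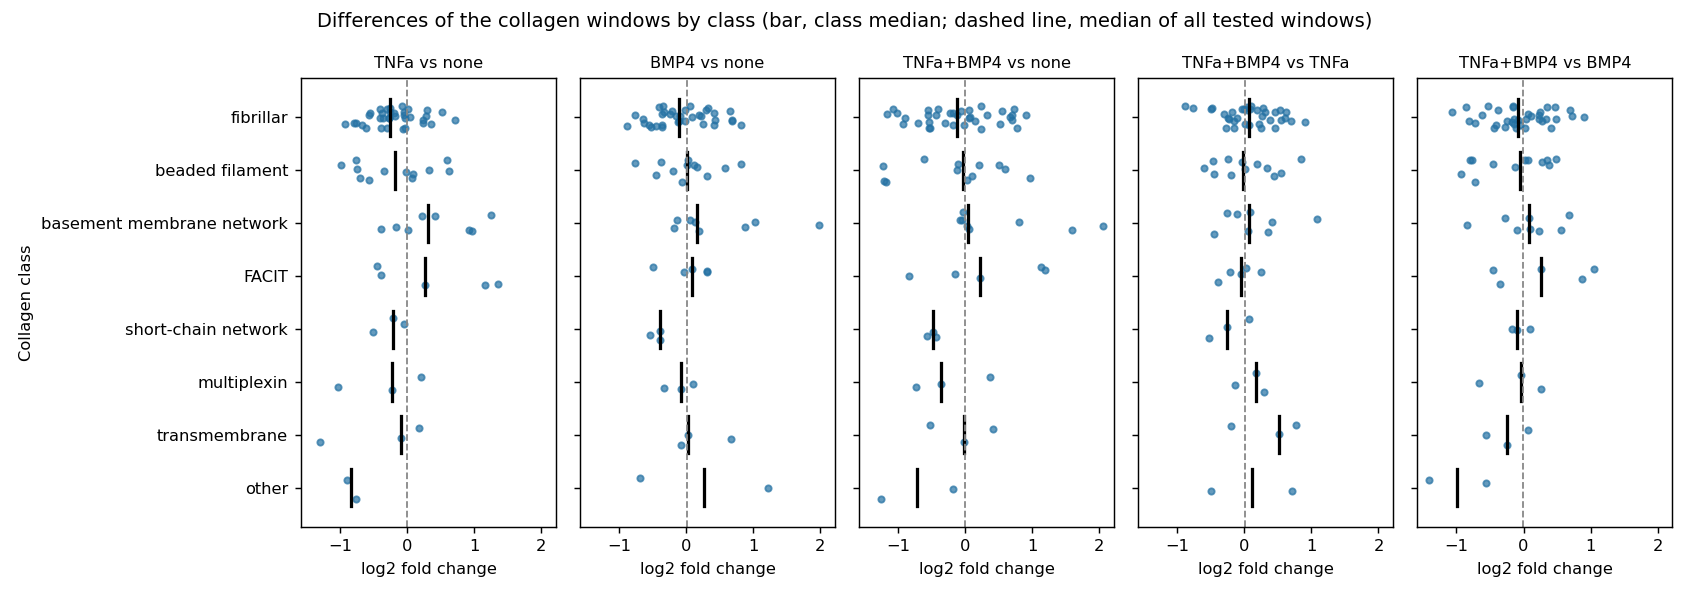
Log2 fold changes of the 71 collagen windows (points) by collagen class (vertical axis) in the 5 comparisons (panels), with the class median as a bar and the median of all 14416 windows as a dashed line. With TNFa the 35 fibrillar windows have a median of -0.26 (-0.047 without the first TNFa library) and the 8 basement membrane windows 0.32 (0.11 without it), and no point passed the adjusted test.

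With TNFa, 7 collagen windows lay wholly above the untreated libraries (background 8.88% of all windows) and 7 wholly below (background 10.5%), shares near the background. At an unadjusted p under 0.05 there was 1 collagen window, against 1.05% of all, and with the replicate number as a block there were 5, against 5.98% of all. The smallest p belonged to a window at -6461 bp from Col17a1, a transmembrane collagen known from the anchoring of skin epithelium (chr19:47698441-47698565, intergenic). It had 58.6 and 52.1 CPM in the untreated libraries, 18.9 and 23.9 in the TNFa libraries, 48.1 and 65.5 in the BMP4 libraries, and 36.7 and 38.5 where both were given. TNFa alone gave the lowest values, both factors lay between, and BMP4 overlapped the untreated libraries. The log2 fold change with TNFa was -1.30 ± 0.48, with an unadjusted p of 0.0258 and an adjusted p of 1.00 (limma), or 0.741 with the block.

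Col18a1, a multiplexin whose end fragment is endostatin, had a window in intron 2 (chr10:77097938-77098062) with 52.8 and 48.4 CPM in the untreated libraries, 20.6 and 27.5 in the TNFa libraries, 72.1 and 31.8 in the BMP4 libraries, and 45.1 and 19.3 where both were given. Its log2 fold change with TNFa was -1.03 ± 0.61. On the higher side, Col16a1, a FACIT collagen, had a window in intron 2 (chr4:130050181-130050305) with 74.6 and 30.8, 178 and 88.4, 140 and 17.8, and 149 and 78.1 CPM. Both TNFa values lay above both untreated ones, with a log2 fold change of 1.35 ± 0.95, or 0.74 without the second untreated library. The second replicate was 0.413 times the first in untreated cells, 0.495 times with TNFa and 0.127 times with BMP4, and the error is wide. With the replicate number as a block the error was 0.53, at an adjusted p of 0.756 (limma).

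The other high window with TNFa was named Col4a1 and lay in intron 4 of Col4a2, at -63017 bp (chr8:11375781-11375905). It had 56.1 and 15.4 CPM in the untreated libraries, 96.1 and 56.2 in the TNFa libraries, 126 and 31.1 in the BMP4 libraries, and 118 and 74.7 where both were given, with a log2 fold change of 1.25 ± 0.83 for TNFa. Its neighbour at -63418 bp (chr8:11376182-11376306) had 28.5 and 10.3, 73.8 and 16.7, 146 and 36.9, and 137 and 44.2 CPM. There the values with BMP4, alone or with TNFa, lay above the untreated libraries in both replicates. Replicate 1 was the higher in all groups in both windows. For TNFa at -63017 bp the log2 fold change was 0.38 without the second untreated library and 2.12 without the first.

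With BMP4 against untreated cells, 34 of 71 collagen windows were above 0 (50.6% of all), with a median of -0.02. With the deposited rlog values aligned on the background libraries, 22 of 71 were above 0, and all windows had a median of -0.19. Of the 71, 5 lay wholly above (background 8.32%) and 6 wholly below (background 8.68%). No collagen window had an unadjusted p under 0.05, against 0.194% of all, and 1 did with the block, against 3.66% of all. That was the -63418 bp window, with a log2 fold change of 1.97 ± 0.96, or an error of 0.46 with the block. Its adjusted p was 1.00, or 0.985 with the block (limma). A window at the end of Col1a2 (chr6:4542444-4542568, at 36888 bp) had 21.8 and 19.8 CPM in the untreated libraries, 29.2 and 25.1 in the TNFa libraries, 48.1 and 29.9 in the BMP4 libraries, and 36.7 and 31.7 where both were given. Every library with a factor lay above both untreated ones there, with 0.81 ± 0.49 for BMP4.

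On the lower side with BMP4, the -84535 bp window of Col5a2 had -0.88 ± 0.51. The window in intron 1 of Col5a2 (chr1:45502458-45502582) had 15.1 and 11 CPM in the untreated libraries, 12 and 13.1 in the TNFa libraries, 8.01 and 6.99 in the BMP4 libraries, and 4.23 and 7.93 where both were given. Libraries with BMP4 lay below those without it in this weak window, which had -0.65 ± 0.50 for BMP4.

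With both factors against untreated cells, 31 of 71 were above 0 (49.7% of all), with a median of -0.06. By total tags 24 of 71 were above 0 (43.0% of all), with a median of -0.19 where all windows had -0.14, and without the second untreated library the median was 0.0093. Collagen windows wholly above numbered 11 (background 16.8%) and those wholly below 13 (background 16.5%). None had an unadjusted p under 0.05, against 2.48% of all, and 9 did with the block, against 17.7% of all. The -63418 bp and -63017 bp windows named Col4a1 had the smallest p on the higher side, with log2 fold changes of 2.05 ± 0.96 and 1.60 ± 0.83 and adjusted p of 0.897 each, or 0.109 and 0.133 with the block (limma). By the smallest p, the 2 lower windows were both of Col5a2: -1.08 ± 0.54 at -38104 bp (chr1:45541324-45541448), with 14.2 and 23.5 CPM in the untreated libraries, 10.3 and 13.1 in the TNFa libraries, 9.16 and 15.3 in the BMP4 libraries, and 5.64 and 10.2 where both were given. The intron 1 window of Col5a2 had -0.92 ± 0.50. Other windows wholly below the untreated libraries lay lower with wider errors, the lowest of them in Col28a1 at 168859 bp, with -1.25 ± 0.79.

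Adding BMP4 to TNFa, against TNFa alone, left 40 of 71 above 0 (51.3% of all), with a median of 0.04. Wholly higher were 9 (background 8.38%) and wholly lower 3 (background 8.93%). There were 0 at an unadjusted p under 0.05, against 0.257% of all, and 2 with the block, against 3.3% of all. The -6461 bp window of Col17a1 had 0.77 ± 0.48. A window at -24351 bp from Col5a2 (chr1:45527571-45527695) had 12.6 and 11 CPM in the untreated libraries, 8.58 and 11.9 in the TNFa libraries, 28.6 and 14.0 in the BMP4 libraries, and 21.1 and 14.7 where both were given, or 0.70 ± 0.53. Lower were the intron 1 and -38104 bp windows of Col5a2, with -0.89 ± 0.50 and -0.50 ± 0.54. So windows of 1 gene, Col5a2, stood on both sides.

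Adding TNFa to BMP4, against BMP4 alone, left 33 of 71 above 0 (49.9% of all), with a median of -0.08. By total tags 23 of 71 were above 0, where all windows had a median of -0.15, and with aligned rlog values 42 of 71, where it was 0.16. Wholly higher were 6 (background 11.7%) and wholly lower 9 (background 13.5%). No collagen window had an unadjusted p under 0.05, with or without the block, against 10.1% and 1.6% of all. The -444 bp promoter window of Col5a1 had 0.90 ± 0.74, which was 0.065 without the second BMP4 library and 1.73 without the first. The window at -59085 bp from Col5a1 (chr2:27827278-27827402) had 80.4 and 29.3 CPM in the untreated libraries, 61.8 and 57.3 in the TNFa libraries, 42.3 and 33.1 in the BMP4 libraries, and 60.6 and 62.3 where both were given, or 0.69 ± 0.59.

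On the lower side of that comparison, Col28a1, a collagen of nerve sheaths, had a window in intron 3 (chr6:8172241-8172365) with 20.1 and 120 CPM in the untreated libraries, 34.3 and 19.1 in the TNFa libraries, 90.4 and 157 in the BMP4 libraries, and 71.9 and 26.0 where both were given, or -1.41 ± 0.88. A window at -47719 bp from Col1a2 (chr6:4457837-4457961) had 23.5 and 57.9, 20.6 and 37.0, 41.2 and 28.6, and 25.4 and 9.06 CPM, or -1.06 ± 0.67. Without the second library of both factors these values were -0.71 at Col28a1 and -0.41 at Col1a2, and without the first -2.11 and -1.72. The untreated libraries of Col28a1, at 20.1 and 120 CPM, spanned much of the range of the treated ones, which was 19.1 to 157 CPM.

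**Figure D5:**
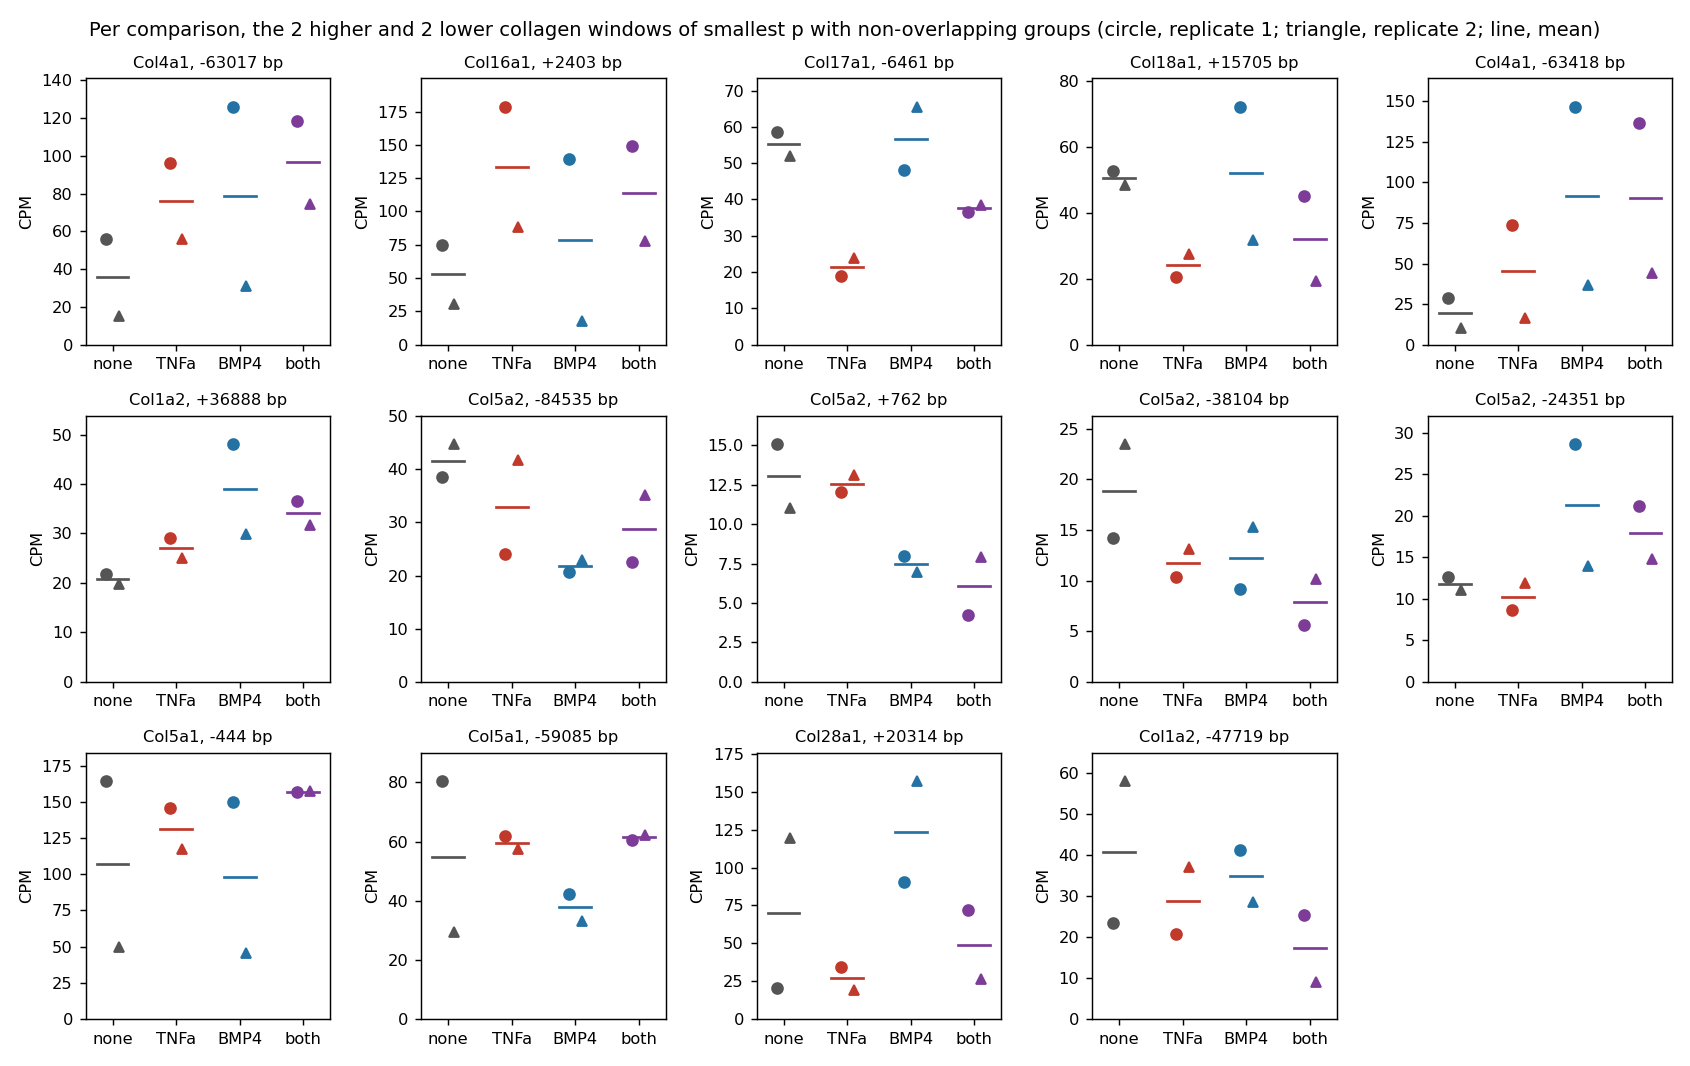
CPM by group (none, TNFa, BMP4, both) of 14 collagen windows, which are, in each of the 5 comparisons, the 2 higher and 2 lower of smallest p among those whose groups did not overlap; circles are replicate 1, triangles replicate 2 and lines the mean of 2, with 1 panel per window. At -6461 bp of Col17a1 the TNFa libraries stand at 18.9 and 23.9 and the untreated ones at 58.6 and 52.1.

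The comparisons share groups, so their values are not independent. In the interaction, which asks whether the difference with TNFa is the same with and without BMP4, 41 of 71 collagen windows were above 0 (52.4% of all), with a median of 0.06. With aligned rlog values 57 of 71 were above 0, where all windows had a median of 0.29. None had an unadjusted p under 0.05, against 0% of all, and none did with the block, against 0.0971% of all. For the -6461 bp window of Col17a1 the interaction was 0.75 ± 0.68.

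Replicates differed by more than 2-fold in 25 of 71 collagen windows in the untreated group, 21 in the TNFa group, 31 in the BMP4 group and 18 in the group of both factors. Over all tested windows the shares were 39.99%, 34.8%, 53.3% and 28.2%. The second library was the higher in all 4 groups in 18 collagen windows and the first in 17, against 22.5% and 23.6% of all windows.

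The proteins that make and read collagen were also examined: enzymes that modify the chains, chaperones, enzymes that cleave the propeptides, crosslinking enzymes and receptors. Of these genes, 23 had 50 tested windows. None of the 50 passed an adjusted p of 0.05 in any comparison, in either direction, and the counts above 0 were 23 with TNFa (50% of all windows), 29 with BMP4 (50.6%) and 30 with both (49.7%), each against untreated cells. The window of smallest p was at -4261 bp from Plod2, a lysyl hydroxylase (chr9:92537900-92538024), with 14.2 and 2.20 CPM in the untreated libraries, 18.9 and 4.78 in the TNFa libraries, 27.5 and 6.99 in the BMP4 libraries, and 46.5 and 24.9 where both were given. Its log2 fold change with both factors was 2.13 ± 0.90, at an unadjusted p of 0.0430 and an adjusted p of 0.897 (limma). By role, 7 of 17 windows of chain-modifying enzymes were above 0 with TNFa, 3 of 6 of chaperones, 0 of 4 of propeptide proteinases, 7 of 11 of crosslinking enzymes and 6 of 12 of receptors. Adamts14, a procollagen N-proteinase, had 62.8 and 142, 32.6 and 32.3, 57.2 and 187, and 29.6 and 44.2 CPM in intron 4 (chr10:61232950-61233074). Both groups with TNFa lay below both groups without it, with -1.49 ± 0.70 for TNFa against untreated cells. Ddr1, a receptor tyrosine kinase for collagen, had a window in intron 1 (chr17:35698086-35698210) with 105 and 103, 80.7 and 51.4, 200 and 161, and 123 and 118 CPM. BMP4 alone gave the highest values at Ddr1, with 0.78 ± 0.50 against untreated cells and an unadjusted p of 0.154 (limma).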

How the data were processed

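Open chromatin was measured by ATAC-seq in 8 libraries of 4 groups, with 2 libraries of sonicated DNA as background. The submitters' processing notes name HOMER 4.11, Bowtie2 2.5.1, Trimmomatic 0.39, deepTools 3.5.1 and Picard 2.25.1, with the mouse build mm10. No source used here says whether cut sites were shifted for the transposase. Windows of 1 fixed length were called by the authors with HOMER on pooled replicates over both background libraries, per the file headers. Per the file headers, the deposited p-values of each window come from that comparison with background, and the adjusted one was at most 0.0499982. The deposited peak score is that of HOMER, per the file headers, and was not used.

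Per the file headers the columns of the libraries hold tag counts. Their values show that the authors deposited regularised log2 values (rlog, as DESeq2 makes them), fitted list by list. The rlog equation was solved for the counts, with 4 constants per list chosen so that counts came out whole. Of the values, 99.3% to 100% lay within 0.1 of a whole number, and of the collagen values all but 3, in the BMP4 list, did. Windows overlapping by at least 63 bp were matched across lists (14471, of which 14416 passed a filter). The filter asked for 15 tags in total and, in 2 libraries, for at least the CPM of 10 tags at the median library size. The collagen windows were shifted between lists by a median of 6 bp and at most 60 bp. CPM after TMM scaling (trims of 0.3 and 0.05) with a pseudocount of 2 was taken to log2 and fitted with limma 3.58.1 (R 4.3.3), with a mean-variance trend and group as the only term. P-values are two-sided and were adjusted by Benjamini-Hochberg over all windows. Fold changes are on the log2 scale with the pseudocount and understate those of low windows. The scripts were tested on simulated data.

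Replicate numbers are given in the labels without what they mark. The correlation of replicate differences between groups ran from 0.105 (none and both factors) to 0.764 (none and BMP4), all over 0.1, so values with the replicate number as a block are given where they moved a count.

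Members, classes, related genes and markers were chosen with earlier results of these data known. Values per library are given for promoter windows of all 4 lists, the highest window of each main bone collagen, the 3 highest windows, and in each comparison the 2 higher and 2 lower windows of smallest p among those whose groups did not overlap (27 windows in all). Other windows given by value were picked after their values were seen. Alternatives covered scaling, pseudocount, filter, matching, weights, the samples fitted, distance to the start and each library left out.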

Additional observations from a re-analysis of the deposited data

How the results depend on the processing

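No collagen window passed an adjusted p of 0.05 in any comparison under any of the alternatives run, where the lowest adjusted p was 0.109 (limma, both factors against untreated cells with the replicate block). The block changed no call past the adjusted threshold. The 20 directions of the windows picked per comparison were kept in all 384 values under the alternatives that held the window. These windows were picked because their groups did not overlap, so leaving out 1 library could not turn a direction. The kept directions are thus no separate support. Collagen medians differed from the main value by more than 0.13 log2, the spread of library medians, as follows. With TNFa against untreated cells (-0.18), the median was -0.32 by total tags and -0.048 when windows under a mean of 30 tags were dropped, and it ran from -0.25 to -0.019 with 1 library left out. With aligned rlog values it was -0.23 for BMP4 against untreated cells, 0.085 for both factors against BMP4, and 0.34 for the interaction. With identical coordinates, which left 19 collagen windows, it was 0.12 for both factors against BMP4. With 1 library left out, the interaction ran from -0.092 to 0.19. Relative to the median of all windows, the collagen median with aligned rlog values was -0.049 for BMP4 against untreated cells (main -0.029) and 0.059 for the interaction (main 0.040). Joining windows within 500 bp left 4 regions in the TNFa lists only, against 10, and 3 in the BMP4 lists only, against 5, where the shares of all regions were 2.94% (main 4.18%) and 1.57% (main 2.57%). Single windows moved by more than 1.5 times when 1 library was left out, among them -63418 bp of Col4a1 (1.01 to 2.94 for BMP4, 1.26 to 2.84 for both factors) and -38104 bp of Col5a2 (-0.84 to -0.16 for both factors against TNFa). At an unadjusted p under 0.05, leaving out 1 library gave up to 2 windows for BMP4, 3 for both factors against untreated cells and 4 against BMP4, each from 0. The cause of these shifts was not tested. A fit without 1 library assumes that the library left alone in its group varies like the others. Depth limits the weak windows, with a lowest count of 3 tags, and 2 libraries per group limit all.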
